A study of Mus musculus with 24 samples.

Results

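The cytosolic ribosomal protein genes were taken as the probes whose gene name on the array starts with Rpl or Rps and a digit, or is Rplp0, Rplp1, Rplp2 or Rpsa, leaving out the Rps6k kinases and names ending in -ps. This gave 193 probes for 86 genes, of 39429 gene probes on each array. The rule works on names, so the set also holds Rps19bp1, which codes for a protein that binds the ribosomal protein RPS19 and is not itself a ribosomal subunit. All samples were OT-I cells, CD8+ T cells with a transgenic T cell receptor for ovalbumin that were marked by CD45.1, from mice with acute graft-versus-host disease or from the cells transferred to induce it. On day 4 after transplantation they were recovered from Blood, Liver, Lung and Intestine (5 arrays each), and on day 0 from the Graft (4 arrays, naive cells serving as controls). The recipients were female m-act OVA mice, strain C57Bl/6-Tg(CAG-OVA)-916Jen/J, in which the broadly active CAG promoter drives ovalbumin. They were 8 to 16 weeks old, received 11 Gy of total body irradiation in split doses, and were given bone marrow cells and splenocytes from donor OT-I mice, strain C57BL/6-Tg(TcraTcrb) 1100Mjb/J, of the same age. Only the OT-I cells of interest carried CD45.1, and in all groups they were isolated by magnetic positive selection for it. Whether every array had an animal to itself is not in the labels, and the p-values therefore reflect only how much these arrays differ, which may in part be technical.

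The cytosolic ribosome is built from a small subunit, whose proteins are named Rps, and a large subunit, whose proteins are named Rpl, around the ribosomal RNAs. Most of these genes are transcribed at high rates, and their mRNAs typically begin with a cytosine followed by a run of pyrimidines (the 5′ terminal oligopyrimidine, or TOP, motif), through which mTORC1 signalling controls their translation. T cells that meet antigen grow and divide quickly, and making ribosomes is a large part of the cost of that growth.

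The pyrimidine tract was looked for in RefSeq start windows (GRCm38.p6) of the genes. Promoter entries were found for 64 of the 86 genes, as 76 windows of 300 bases. A tract, meaning a run of at least 6 pyrimidines that begins with cytosine, follows a purine and starts within 10 bases of the annotated start on the gene's strand, stood in 28.9% of these windows, against 13.7% of 32851 windows of all genes. The letters CCGGAAG, the core of ETS factor sites, occurred on either strand in 34.2% of the windows, against 8.86% of all. AAGATGGC, a core of YY1 sites, occurred on either strand in 10.5%, against 2.75% of all. These matches describe letters in these windows only. The 30 bases around the start, 15 on each side, are shown for the genes the results return to, with a tract in capitals: Rps2 at chr17:24720048-24720077 on the plus strand, Rps27 at chr3:90213634-90213663 on the minus strand, and for comparison Rps27l at chr9:66946071-66946100 and Rplp0 at chr5:115559452-115559481, both on the plus strand, in which no tract was found.
Rps2: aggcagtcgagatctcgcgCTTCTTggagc
Rps27: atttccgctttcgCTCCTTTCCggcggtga
Rps27l: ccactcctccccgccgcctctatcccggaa
Rplp0: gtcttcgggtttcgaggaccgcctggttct

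Levels are log2 processed signals relative to the 75th percentile of the gene probes of the same array. A gene was tested if the scanner software flagged a probe of it as well above background throughout a group, with 1 missing array allowed, and its brightest such probe stood for it. By this filter 83 of the 86 genes (182 probes) were tested, among 9424 genes in all. Rpl3l, the muscle form of Rpl3, was well above background on 0 arrays, and Rpl7l1 and Rpl39l (a testis form of Rpl39) on too few, as 1 and 6 of the 20 day 4 arrays and 0 of the 4 Graft arrays. Cd3e, Cd8a and Cd8b1, which define CD8+ T cells, were well above background on all 24 arrays. Of the 83 tested genes, 81 were well above background on all 24 arrays, 75 lay in the brightest 5% of gene probes on every array and 41 in the brightest 1%, by signal, which also depends on how well each probe binds. No probe of the set was saturated on any array.

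Before the comparisons, 3 features of the arrays bear on every value against the Graft. The 4 Graft arrays were alone on their slide and were scanned on a day of their own, so slide, scan and Graft cannot be told apart; the day 4 arrays lay on 5 slides that each held 1 array of every site. Transcripts of other blood cells were high in the Graft: of 11 tested B cell markers 10 were called lower on day 4, their summed linear level being 4.34 to 11.8 in Blood, 14.6 to 38.6 in Lung, 5.06 to 40.2 in Liver and 10.6 to 83.8 in Intestine, against 279 to 344 in the Graft. Ms4a1 and Spib were well above background on all 4 Graft arrays and on 0 of 20 day 4 arrays. Of 12 tested neutrophil and monocyte markers 10 were also lower on day 4, with sums of 57.4 to 100 in Blood, 72.3 to 105 in Lung, 70.1 to 222 in Liver and 49.1 to 187 in Intestine, against 427 to 607 in the Graft. Erythroid markers were called lower in 3 of 3 tested, with sums of 0.388 to 74.3 over the day 4 arrays, against 8.97 to 379 in the Graft. Dendritic cell and MHC class II markers were lower in 4 of 7, with 29.4 to 263 on day 4, against 215 to 258 in the Graft. Tissue markers in turn were high on some day 4 arrays. Lung markers summed to 13.1 to 445 in Lung, against 8.39 to 33.9 in the Graft. Intestine markers summed to 0.144 to 167 in Intestine, against 1.22 to 4.34 in the Graft. Hepatocyte markers summed to 1.27 to 2.74 in Liver and 2.6 to 20.4 in Lung, against 1.07 to 1.21 in the Graft. The part of these transcripts in the results was not tested. The samples are bulk RNA, so fewer cells of a type and less RNA per cell cannot be told apart.

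The median of the 83 genes moved little between groups. It was 6.91 ± 0.172 in Blood, 7.08 ± 0.355 in Lung, 7.17 ± 0.490 in Liver and 7.04 ± 0.492 in Intestine (SD, n = 5 each), against 7.35 ± 0.150 in the Graft (SD, n = 4). The values by array were 6.73, 6.73, 6.95, 7.05 and 7.09 in Blood, 6.67, 6.68, 7.39, 7.33 and 7.80 in Liver, 6.65, 6.92, 7.52, 6.95 and 7.37 in Lung, and 6.75, 6.86, 7.91, 6.78 and 6.88 in Intestine, against 7.29, 7.34, 7.56 and 7.21 in the Graft. All Blood arrays lay below the Graft arrays, while Liver, Lung and Intestine each overlapped them, and Intestine 3 stood above the rest of its site. When the 75th percentile was instead taken over those probes that every array detected, the Graft stood above every site: 1.74 to 1.98 in Blood, 1.73 to 2.23 in Lung, 1.72 to 2.29 in Liver and 1.80 to 2.51 in Intestine, against 2.54 to 2.88 in the Graft. After quantile normalisation the groups overlapped, with medians (log2 normalised signal) of 17.55 to 17.66 in Blood, 17.45 to 17.65 in Lung, 17.53 to 17.70 in Liver and 17.32 to 17.67 in Intestine, against 17.54 to 17.65 in the Graft. Part of the spread within a group was shared by the genes. Their median SD was 0.238 in Blood, 0.390 in Lung, 0.493 in Liver and 0.537 in Intestine, against 0.192 in the Graft, and after each array was centred on the median of the set it was 0.164 in Blood, 0.197 in Lung, 0.167 in Liver and 0.240 in Intestine, against 0.133 in the Graft.

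**Figure D1:**
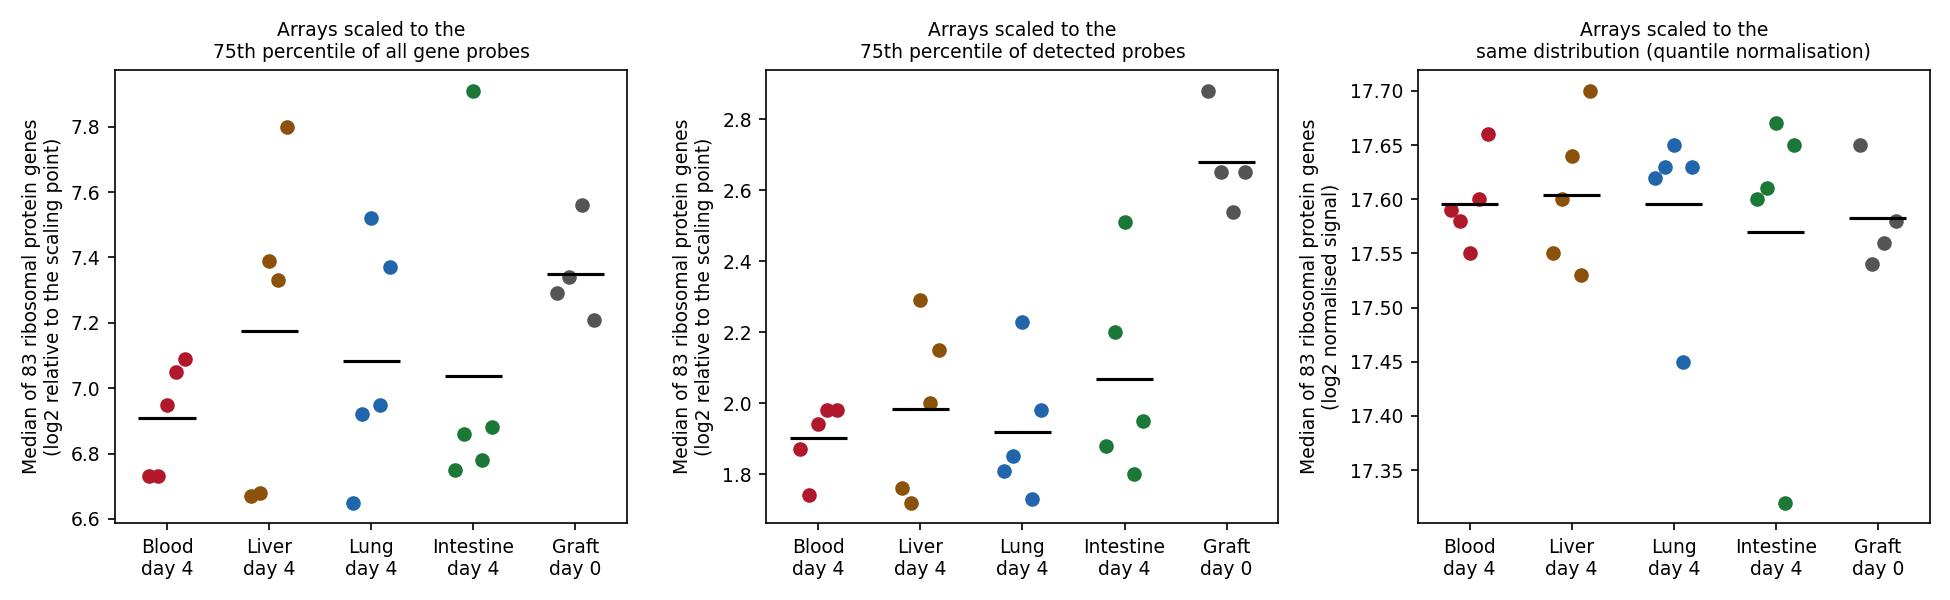
Median log2 level of the 83 tested ribosomal protein genes on each array (points, with the group mean as a line), for 5 arrays at each day 4 site and 4 Graft arrays; the left panel scales arrays to the 75th percentile of all gene probes, the middle panel to that of detected probes, and the right panel shows quantile-normalised log2 signal. On the left the sites overlap the Graft except for Blood (6.73 to 7.09, against 7.21 to 7.56 in the Graft); in the middle no day 4 array reaches the Graft's lowest value of 2.54, and on the right every site overlaps the Graft (17.54 to 17.65).

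Between the mean of the 4 sites and the Graft, few of these genes moved far, and those that did went both ways. Rps27l, Rps2, Rps19bp1 and Rpl7a were called higher and 18 genes lower, led by Rpl21 and Rps19, by limma's test over all genes with Benjamini-Hochberg adjusted p under 0.05. The 22 called genes are 26.5% of the 83, where 53.4% of all tested genes were called (34.4% higher, 19% lower). Rps19bp1 and Rpl10l passed the filter only through groups where they are high. With the 81 genes and 4713 in all that were well above background on all arrays, 3 were called higher and 17 lower (51.7% of all, 40.4% higher and 11.3% lower). The median difference was −0.28 for the set, and 0.23 over all tested genes. At least a 2-fold difference was seen in 12% of the set, against 37.8% of all tested genes. The call counts depend on the scaling: 3 higher and 65 lower with the detected probes' 75th percentile (22.9% and 33.1% of all tested genes), and 13 higher and 15 lower with quantile normalisation (27.1% and 26.8%). Large-subunit genes (Rpl and Rplp) gave 1 higher and 13 lower of 48, with a median of −0.32, and small-subunit genes (Rps and Rpsa) gave 3 higher and 5 lower of 35, with a median of −0.25.

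**Figure D2:**
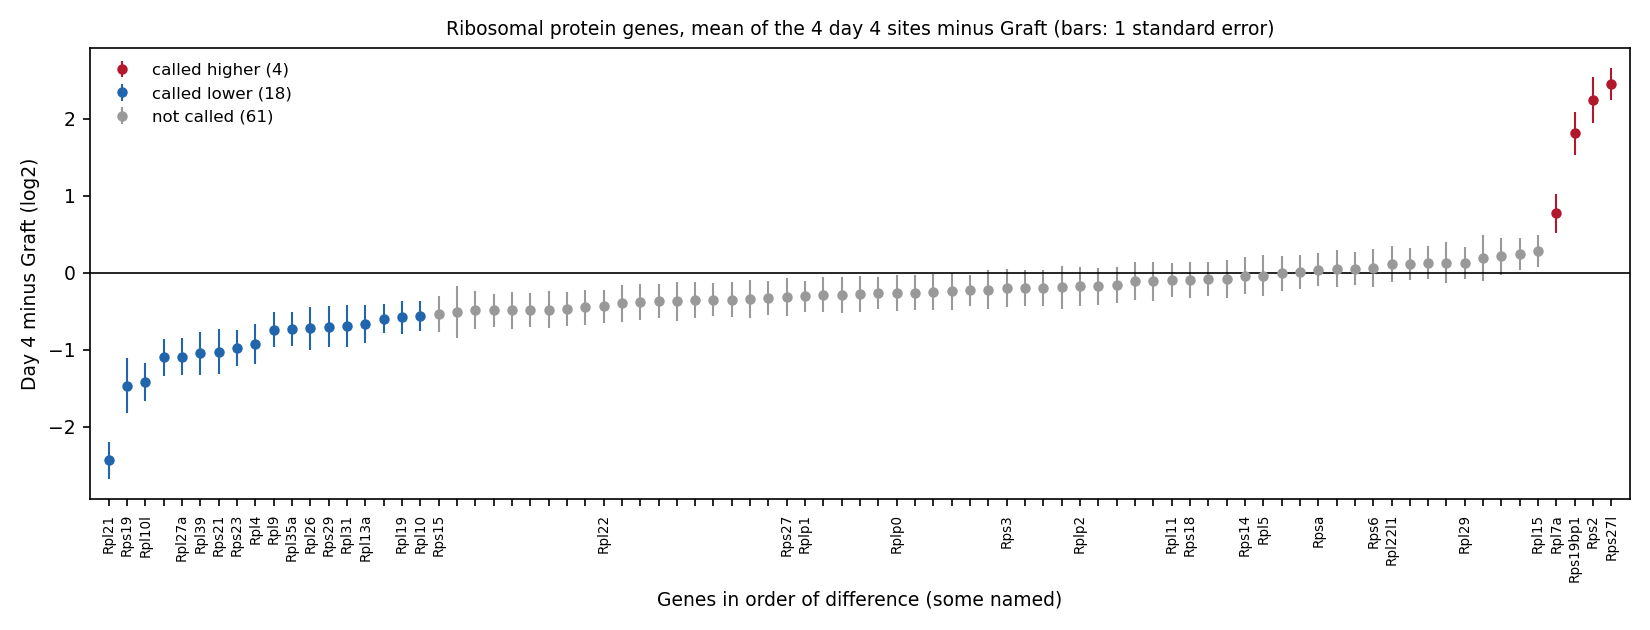
Log2 difference of each of the 83 tested ribosomal protein genes between the mean of the 4 day 4 sites and the Graft, in order of size, with 1 standard error and gene names for some of them (20 day 4 arrays and 4 Graft arrays). The 4 genes called higher reach 2.45 (Rps27l), the 18 called lower reach −2.44 (Rpl21), and 61 genes were not called.

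Rps27l, a close relative of Rps27 that p53 is known to induce, had the largest positive difference. Its level was 4.70, 5.02, 5.40, 5.10 and 5.61 in Blood, 4.59, 4.93, 5.00, 5.21 and 4.30 in Liver, 4.84, 4.70, 4.77, 4.27 and 4.77 in Lung, and 4.80, 4.51, 5.19, 4.36 and 4.11 in Intestine, against 2.28, 2.87, 2.10 and 2.20 in the Graft. Every day 4 array lay above every Graft array, with no overlap. The difference was 2.45 (SE 0.205, limma adjusted p = 2.52e-09) over the 4 sites, and by site 2.80 in Blood, 2.31 in Lung, 2.44 in Liver and 2.23 in Intestine. Rps27 itself, a small-subunit protein, had levels from 6.61 to 8.24 with a median of 7.20 on day 4, against 7.49, 7.66, 7.93 and 7.35 in the Graft, and by the probe that stood for it its difference of −0.32 was not called (limma adjusted p = 0.269). Within each array, the log2 ratio of Rps27l to Rps27 ran from −3.71 to −1.40 on day 4, against −5.83 to −4.79 in the Graft. This ratio, which a change of an array's scaling factor leaves as it is, was higher on day 4 by 2.77 and above every Graft array on 20 of 20 arrays (exact two-sided permutation test over 10626 splits, p = 9.41e-05, the smallest these can give; adjusted over 4 pairs, 0.000376). The splits, here and for the pairs below, treat all arrays as exchangeable, without regard to site or slide. The Graft arrays had a slide of their own. The probe of Rps27l lies across an intron on the plus strand at chr9:66795486-66797176 (mm9). All 4 Rps27 probes are placed by the array on chromosome 9, the one behind these values at chr9:114891509-114891568 (minus strand, mm9), whereas RefSeq places the Rps27 gene on chromosome 3, so which locus they read is uncertain. The differences of the 4 Rps27 probes ran from −0.87 to −0.32, and 2 of them were called lower. The 2 probes behind the ratio are shown, that of Rps27 as its first 30 bases.
Rps27l probe: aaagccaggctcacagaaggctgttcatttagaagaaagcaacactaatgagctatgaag
Rps27 probe: gcccctgattgaagatgagtgggaaccttc

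Rps2, a small-subunit protein near the path of the mRNA, rose at all 4 sites. Its level was 5.61, 6.25, 6.70, 6.78 and 6.66 in Blood, 5.86, 6.30, 7.06, 6.97 and 6.76 in Liver, 5.90, 6.08, 7.17, 6.01 and 6.89 in Lung, and 5.95, 6.20, 7.47, 5.74 and 6.57 in Intestine, against 4.65, 4.04, 3.53 and 4.61 in the Graft. Again the groups did not overlap, and the difference over the 4 sites was 2.24 (SE 0.302, limma adjusted p = 2.17e-06). Its other probe gave 2.12 (SE 0.217, limma adjusted p = 5.08e-08 over all probes), with 5.30 to 6.82 on day 4, against 3.69 to 4.40 in the Graft. Both are printed because they gave differences of the same direction and like size: the first is placed at chr17:42864841-42864900 and the second at chr17:24857583-24857642, both on the plus strand of mm9. The first, which stood for the gene, is thus placed far from the second on the same chromosome, so which locus it reads is uncertain. Rps27l and Rps2 are the 2 genes of the set above every Graft array on all 20 day 4 arrays (10.9% of all tested genes were).
Rps2 probe 1: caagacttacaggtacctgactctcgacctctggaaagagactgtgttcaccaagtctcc
Rps2 probe 2: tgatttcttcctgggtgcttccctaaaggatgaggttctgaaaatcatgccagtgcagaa

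Rpl7a, a large-subunit protein, rose less, with levels from 5.15 to 6.86 and a median of 6.06 on day 4, against 5.35, 4.97, 5.17 and 5.29 in the Graft. On 18 of 20 day 4 arrays it lay above every Graft array, and its difference was 0.77 (SE 0.257, limma adjusted p = 0.0157). Without Graft 2 the difference was 0.69 and no longer called (limma adjusted p = 0.061). Nor was it called with arrays scaled to the 75th percentile or the median of the detected probes. Over 44 alternatives, of which 3 lost the call, the lowest difference was 0.22. All 4 of its probes were called higher, by 0.77 to 2.40. The widest gap was between 2 probes placed at the same 60 bases, chr2:26768759-26768818 (plus strand, mm9), which differ from each other at 6 bases, printed in capitals. The first gave 0.77 and the second 2.40 (SE 0.578, limma adjusted p = 0.00139 over all probes), the second running from 0.00 to 4.36 on day 4, against −0.46 to 0.89 in the Graft.
Rpl7a probe 1: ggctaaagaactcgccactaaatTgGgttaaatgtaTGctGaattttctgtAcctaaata
Rpl7a probe 2: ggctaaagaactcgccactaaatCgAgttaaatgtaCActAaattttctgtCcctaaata

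Rps19bp1, the RPS19-binding protein, was near background in the Graft and higher at all 4 sites. It had 2.06, 1.96, 2.36, 1.72 and 1.74 in Blood, 1.60, 1.83, 1.91, 1.53 and 2.03 in Liver, 2.17, 1.68, 0.58, 1.11 and 1.40 in Lung, and 1.55, 0.91, 1.25, −0.34 and 1.67 in Intestine, against −0.58, −0.34, 0.31 and −0.48 in the Graft. It was well above background on 19 of 20 day 4 arrays and on 1 of 4 Graft arrays, and 19 day 4 arrays lay above every Graft array. The difference was 1.81 (SE 0.278). The gene passed the filter through the day 4 sites alone, so it had to differ, and no test against the Graft is given for it. Rps19 itself, a small-subunit protein whose loss causes Diamond-Blackfan anaemia in humans, went the other way.

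Rps19 fell at all 4 sites. Its level was 2.48, 2.83, 4.25, 4.15 and 3.98 in Blood, 3.06, 3.99, 4.35, 3.81 and 3.27 in Liver, 3.41, 2.64, 2.71, 1.64 and 2.85 in Lung, and 3.26, 2.88, 4.42, 2.09 and 3.51 in Intestine, against 5.12, 4.33, 4.63 and 4.91 in the Graft. On 18 of 20 day 4 arrays it lay below every Graft array, and the difference was −1.47 (SE 0.357, limma adjusted p = 0.00153), from −1.05 in Liver to −2.10 in Lung. Rps23, which sits at the decoding centre, had 5.78 to 7.42 with a median of 6.52 on day 4, against 7.38, 7.48, 7.66 and 7.46 in the Graft, and had a difference of −0.98 (limma adjusted p = 0.00117).

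Rpl21, a large-subunit protein, had the largest negative difference. Its level was 2.62, 2.88, 2.95, 2.80 and 3.11 in Blood, 3.48, 3.49, 3.10, 2.70 and 3.46 in Liver, 3.04, 3.01, 2.72, 1.69 and 2.45 in Lung, and 2.95, 2.63, 3.26, 1.90 and 3.35 in Intestine, against 5.44, 5.00, 5.55 and 5.30 in the Graft. No day 4 array reached the Graft, and the difference was −2.44 (SE 0.238, limma adjusted p = 2.41e-08). The second Rpl21 probe, 3′ of the first, was dim, with −1.18 to 0.34 on day 4, against −1.18 to −0.69 in the Graft. It was well above background on 12 of 20 day 4 arrays and 1 of 4 Graft arrays and passed the filter through Liver alone, so no test is given for it. Rpl10l, a retrogene copy of Rpl10 known from testis, was dim: well above background on 1 of 20 day 4 arrays and on 3 of 4 Graft arrays. It averaged −1.82 in Liver, −1.34 in Lung and −1.24 in Intestine, against −0.02 in the Graft. Since it was not well above background on any array of these 3 sites, the differences are bounds, at least 1.87-fold, 1.43-fold and 1.63-fold higher in the Graft in the same order. It passed the filter through the Graft alone, where it is highest, so it had to differ, and no test is given for it.

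Of the other genes called lower, Rpl27a, Rpl39 and Rps21 fell by 1.09, 1.05 and 1.03 on the log2 scale. Rpl27a levels ran from 5.62 to 7.29 with a median of 6.46 on day 4, against 7.52, 7.38, 7.62 and 7.36 in the Graft, with all 20 day 4 arrays below. Rpl39, the small protein lining the exit tunnel, ran from 5.74 to 7.84, against 7.48 to 7.88 in the Graft, with 19 of 20 below. Rpl27a, Rpl21 and Rpl10l, the last kept by the filter for its Graft level, are the 3 genes below every Graft array on all 20 day 4 arrays (6.21% of all tested genes were). Further genes called lower, named after their values were seen, included Rpl4, Rpl9, Rpl35a, Rpl26, Rps29, Rpl31, Rpl13a, Rpl19 and Rpl10, with differences from −0.93 to −0.56. These are values of the probe that stood for each gene. In Rpl27a, Rpl31 and Rpl13a other tested probes were called higher, and Rpl10 was 0.09 and not called by its 3′ probe.

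**Figure D3:**
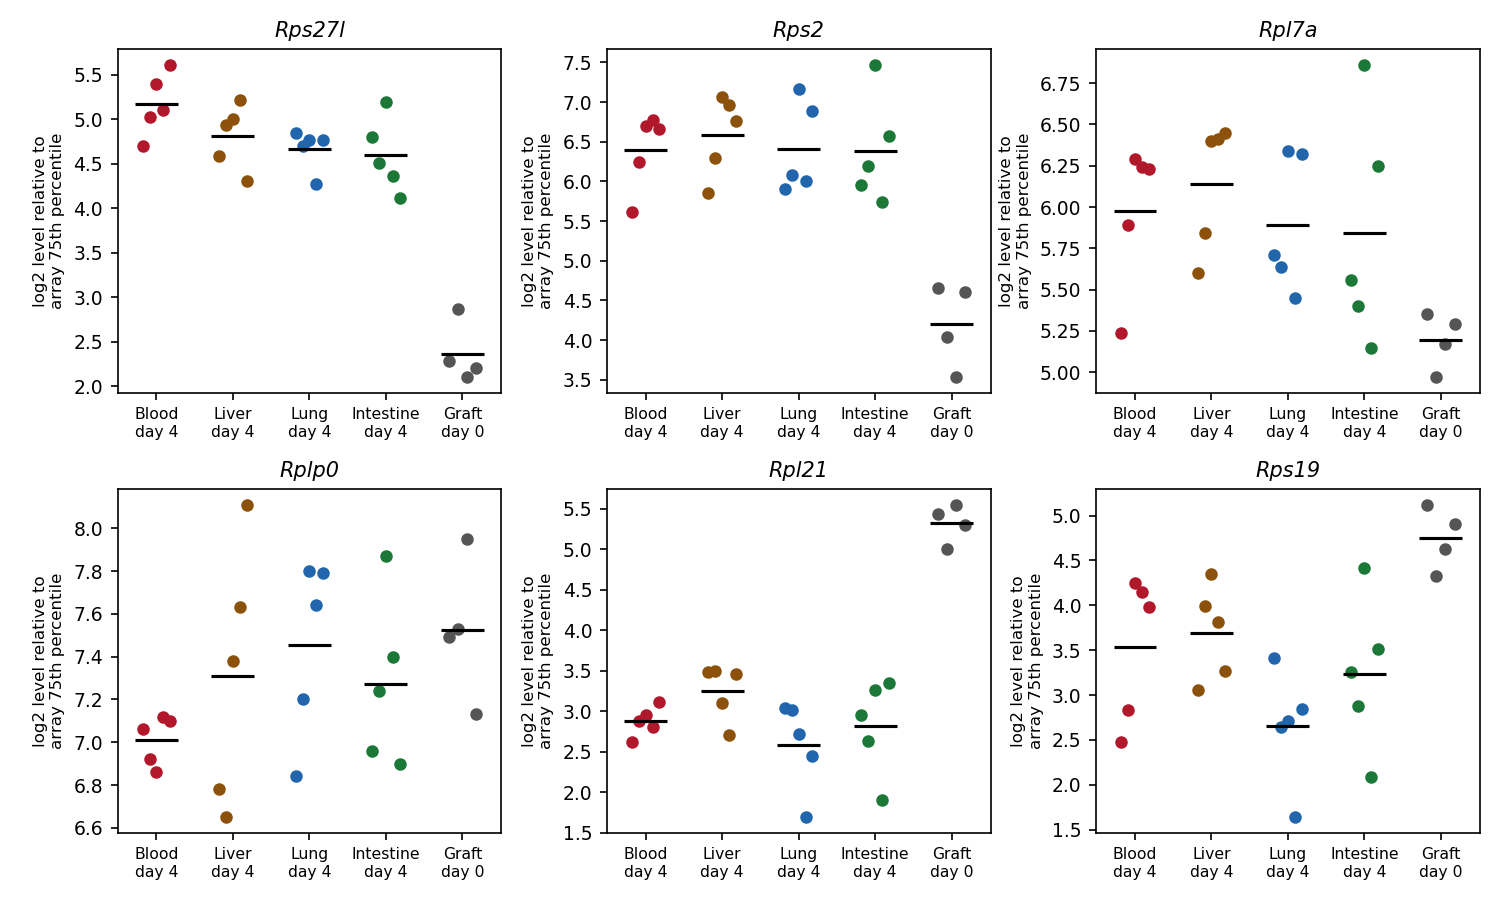
Log2 level relative to the array's 75th percentile of 6 ribosomal protein genes on each array (points) with group means (lines), for Blood, Liver, Lung and Intestine on day 4 (5 arrays each) and the Graft on day 0 (4 arrays); each panel has its own axis range. Rps27l and Rps2 lie above the Graft on all 20 day 4 arrays and Rpl21 below it on all 20, while Rplp0 overlaps (6.65 to 8.11 on day 4, against 7.13 to 7.95 in the Graft).

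The stalk proteins, which recruit the elongation factors, did not pass the test. Rplp0 had 7.06, 6.92, 6.86, 7.12 and 7.10 in Blood, 6.78, 6.65, 7.38, 7.63 and 8.11 in Liver, 6.84, 7.20, 7.80, 7.64 and 7.79 in Lung, and 6.96, 7.24, 7.87, 7.40 and 6.90 in Intestine, against 7.49, 7.53, 7.95 and 7.13 in the Graft. Its difference was −0.26 (limma adjusted p = 0.348), that of Rplp1 was −0.31 (0.196) and that of Rplp2 was −0.18 (0.556). Rpl5 and Rpl11, which bind MDM2 when ribosome assembly is disturbed, differed by −0.04 and −0.10 (limma adjusted p = 0.907 and 0.727). Rps6, the substrate of the S6 kinases, differed by 0.06, Rps3, at the mRNA entry, by −0.20, and Rps14, of the platform, by −0.04. For all of these the day 4 and Graft arrays overlapped. Under scalings to the detected probes the values of Rplp0, Rplp1 and Rplp2 moved to between −0.86 and −0.59 and were called lower. Rps6 was −0.49 and called lower when arrays were scaled to the median of those probes. Rpl5, Rpl11, Rps3 and Rps14 were each called under some alternative as well. Their lowest values over the alternatives were −0.59, −0.64, −0.74 and −0.58 in the same order. By its 3′ probe Rps3 was 1.67 and called higher.

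Pairs of close paralogs were compared as ratios within arrays. Rpl22l1, which in mouse cells is held back by its paralog Rpl22, had 5.68 to 7.23 with a median of 6.18 on day 4, against 5.90 to 6.39 in the Graft. Rpl22 had 6.83 to 8.15 with a median of 7.13 on day 4, against 7.52 to 7.96 in the Graft. Neither was called by itself (0.11 and −0.44). Their log2 ratio was higher on day 4 by 0.55, running from −1.55 to −0.61 on day 4, against −1.88 to −1.44 in the Graft, with 18 of 20 arrays above every Graft array (exact two-sided permutation test, p = 0.000753; adjusted over 4 pairs, 0.00151). The ratio of Rpl36al to Rpl36a differed by −0.02 (exact permutation p = 0.828), with ranges of −1.52 to −0.84 on day 4, against −1.18 to −0.91 in the Graft. The ratio of Rps4l to Rps4x differed by −0.25 (exact permutation p = 0.469; adjusted over 4 pairs, 0.625), and Rps4l is a non-coding entry in RefSeq. The size of a ratio also reflects how its 2 probes bind, and a difference in it shows unequal change without saying which partner changed.

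The array carries more than 1 tested probe for 61 of the 83 genes, and probes of a gene often disagreed. Of 182 tested probes 18 were called higher and 40 lower between the mean of the 4 sites and the Graft (54.4% of all tested probes were called either way). The range over a gene's probes had a median of 0.54, was at least 1 in 17 genes and was under 0.5 in 29. In 5 genes, Rpl13a, Rpl21, Rpl27a, Rpl31 and Rpsa, probes were called in opposite directions, in Rpl21 and Rpsa through a probe that passed the filter only where it was high. Only Rpl7a (4 probes, higher), Rps2 (2, higher) and Rpl39 (2, lower) had every one of several tested probes called the same way. The array places 27 of the 193 probes off the chromosome of their gene, or nowhere. Such genes have near-identical processed copies elsewhere in the genome, so which copy a probe reads is uncertain.

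Rpsa, which is both a small-subunit protein and the laminin receptor, had the widest range. Its main probe had 6.84 to 8.21 with a median of 7.30 on day 4, against 7.15, 7.41, 7.65 and 7.07 in the Graft, and was not called (0.04, limma adjusted p = 0.875). The probe nearest the 3′ end was well above background on 19 of 20 day 4 arrays and 0 of 4 Graft arrays, with −0.40 to 2.79 and a median of 1.87 on day 4, against −2.47, −1.04, −1.29 and −2.36 in the Graft. That is at least 7.09-fold higher in Blood, 5.08-fold in Lung, 6.72-fold in Liver and 3.61-fold in Intestine than in the Graft, where it has only a bound. It passed the filter through the day 4 sites alone, so no test is given for it. The probe nearest the 5′ end went down, with 1.42 to 2.81 on day 4, against 3.08, 2.65, 3.19 and 2.92 in the Graft, a difference of −0.79 (limma adjusted p = 0.00255 over all probes). The 3 probes lie on the plus strand of mm9 at chr9:120040967-120041026 (3′), chr9:120040269-120040849 (main, across an intron) and chr9:120037601-120037660 (5′). They are printed, the first as its first 30 bases, because the values of Rpsa differ among them.
Rpsa 3′ probe: acctggccagattgggattttgtgtcccag
Rpsa main probe: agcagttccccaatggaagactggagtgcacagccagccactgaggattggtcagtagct
Rpsa 5′ probe: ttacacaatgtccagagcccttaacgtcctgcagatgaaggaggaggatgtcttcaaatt

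Similar gaps between ends recurred. Rps15, a small-subunit protein, fell by 3.77 (log2; SE 0.436; limma adjusted p = 2.67e-07 over all probes) by its 5′ probe, which had −2.39 to 0.89 on day 4, against 3.64, 2.87, 3.20 and 3.19 in the Graft, and was well above background on 13 of 20 day 4 arrays and all 4 Graft arrays. By its 3′ probe, which stood for the gene, the difference was −0.54 and not called (limma adjusted p = 0.0525 over all probes), with 5.93 to 7.39 on day 4, against 7.08, 7.19, 7.37 and 6.84 in the Graft. Rps18 fell by 2.22 on its 5′ probe (−1.17 to 0.62 on day 4, against 1.62 to 2.49 in the Graft) and differed by −0.09 on its 3′ probe. Rpl31 fell by 1.16 on a 5′ probe and rose by 1.87 on the 3′ probe, which had 0.79 to 3.43 on day 4, against 0.18, 0.24, 1.02 and 1.1 in the Graft; the probe that stood for Rpl31 (−0.69) is placed far from both on the same chromosome. The Rps15 probes are printed because the size of the difference turns on the probe, and the main Rpl21 probe because that gene had the largest negative difference. Those of Rps15 lie at chr10:79755554-79756394 (5′, across an intron) and chr10:79756716-79756775 (3′), and that of Rpl21 at chr5:147646040-147646581 (across an intron), all on the plus strand of mm9.
Rps15 5′ probe: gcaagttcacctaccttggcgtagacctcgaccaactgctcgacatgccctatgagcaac
Rps15 3′ probe: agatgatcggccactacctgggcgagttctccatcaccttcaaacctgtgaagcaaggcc
Rpl21 main probe: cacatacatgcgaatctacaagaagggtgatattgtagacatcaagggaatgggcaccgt

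For 41 genes of the set, 2 tested probes could be placed on the gene's own chromosome between 60 and 20000 bases apart. The 3′ probe gave the higher day 4 minus Graft difference in 26 of 41 (63.4%), with a median gap of 0.31. Over all 1180 genes with such a pair it did so in 54.7%, with a median gap of 0.15. The gap exceeded 1 with the 3′ probe higher in 12 of the 41 genes and with the 5′ probe higher in 1, Rpl29, whereas over all genes these counts were 286 and 218. With pairs whose probes were both well above background on all or all but 1 array of every group, chosen after seeing the data, the 3′ probe gave the higher difference in 21 of 36 (58.3%; 53.4% of 504 genes in all), with a gap over 1 in 8 genes, and in 1 the other way. Between sites the 3′ probe gave the higher value in 22% of the 41 genes for Intestine against Lung (38.7% of all genes), in 73.2% for Lung against Liver (54.4%) and in 70.7% for Lung against Blood (48.5%), with median gaps of −0.11, 0.12 and 0.08. The shares were 43.9% for Liver against Blood (41.9% of all genes), 53.7% for Intestine against Blood (44.2%) and 53.7% for Intestine against Liver (48.6%). RNA integrity by array and its part in these gaps was not tested.

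**Figure D4:**
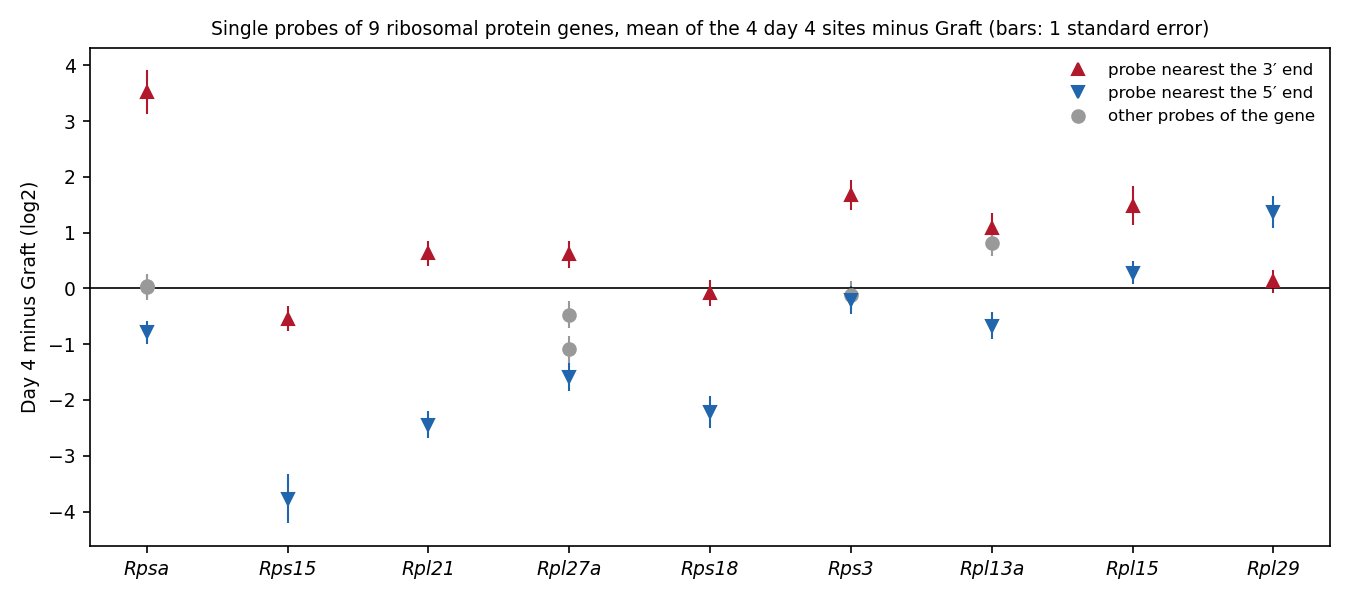
Log2 difference between the mean of the 4 day 4 sites and the Graft for single probes of 9 of the 13 ribosomal protein genes whose 3′ and 5′ probes differ by more than 1, those named in the text, with 1 standard error. Upward triangles mark the probe nearest the 3′ end, downward triangles the one nearest the 5′ end, and circles the gene's other tested probes, wherever the array places them. The 3′ probe is the higher in 8 of the 9 genes, most in Rpsa (3.52, and −0.79 for its 5′ probe), and the lower in Rpl29 alone. The Rpsa 3′ probe was well above background on 0 of 4 Graft arrays, so 3.52 is not a measured size. It and the Rpl21 3′ probe passed the filter only through day 4 sites, where they are high.

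Each site was also compared with the Graft by itself, and these comparisons share the 4 Graft arrays. Blood gave 4 genes higher and 21 lower of the 83 (56.4% of all tested genes were called, 35.3% higher and 21.1% lower). Liver gave 4 and 5 (50.4% of all; 34.4% and 16%), Lung 3 and 14 (37.4%; 25.8% and 11.6%) and Intestine 3 and 11 (34.9%; 22.1% and 12.7%). Median differences were −0.45 in Blood, −0.24 in Lung, −0.18 in Liver and −0.30 in Intestine for the set, and over all tested genes they were 0.29 for Blood, 0.19 for Lung, 0.34 for Liver and 0.09 for Intestine. Called higher at all 4 sites were Rps27l, Rps2 and Rps19bp1 (17.4% of all tested genes were), and 5 genes were called lower at all 4, among them Rpl21, Rps19 and Rps23 (7.34% were). Single arrays moved some counts by more than 1.5 times: the 25 calls of Blood became 14 without Graft 3, 16 without Graft 2 and 15 without Blood 2, and the 14 of Intestine became 29 without Intestine 3.

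Between sites the set showed almost no calls. Of the 6 pairs, Intestine against Blood called 1 gene, Rps19bp1 (13.3% of all tested genes were called in that pair, 11.5% lower), and the others called 0 of 83 by limma with Benjamini-Hochberg adjustment. In those 5 pairs the share of all tested genes called was 0% for Liver against Blood, 1.54% for Lung against Blood, 0.456% for Lung against Liver, 0% for Intestine against Liver and 0.382% for Intestine against Lung, and genes of the set with an unadjusted p under 0.05 numbered 0, 3, 4, 1 and 0. With array weights 4 genes of the set were called for Intestine against Liver, where 34.2% of all tested genes were. Median differences of the set ran from −0.18 (Intestine minus Liver) to 0.28 (Liver minus Blood), and their signs depend on the scaling, as with Lung minus Blood at 0.12 and, after quantile normalisation, −0.06. For Rps19bp1 the values by slide were lower in Intestine than in Blood by 0.52, 1.05, 1.1, 2.06 and 0.07, in the same direction on 5 of 5 slides, and the difference was −0.96 (limma adjusted p = 0.0499). Without Intestine 4 it was −0.62 and no longer called (limma adjusted p = 0.167), and 28 of 41 alternatives lost the call.

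How the set as a whole stands against the Graft depends on how arrays are put on a common scale. The offset between the 75th percentile of all gene probes and that of detected probes differed by group: it averaged −5.01 in Blood, −5.16 in Lung, −5.19 in Liver and −4.97 in Intestine, against −4.67 in the Graft. With the 75th percentile of all probes the median of all tested genes was 0.23, with that of detected probes −0.18, with the median of detected probes −0.32, with quantile normalisation −0.05 and after normexp background correction 0.29. The median of the set minus that of all tested genes was −0.51 under each of the 3 percentile or median scalings. These subtract the same value from every gene of an array, so they cannot change it. It was −0.34 with normexp and 0.05 with quantile normalisation. The authors' deposited table of log2 values, which matches quantile-normalised signal, also gave 0.05. Beside the 4 genes of the set higher and 18 lower with the 75th percentile of all probes, that of detected probes gave 3 and 65 (56% of all tested genes were called). The median of detected probes gave 3 and 71 (60% of all; 21.9% higher and 38.1% lower), and normexp gave 5 and 7 (51.5%; 36.6% and 14.9%). Quantile normalisation gave 13 and 15 (53.8% of all), as did the deposited table (53.8%; 27.1% and 26.7%).

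Centred on the median of the 83 genes themselves, so that only changes relative to the rest of the set remain, 11 genes were higher and 11 lower on day 4 (48.7% of all tested genes were called, 40.4% higher and 8.26% lower). Rps27l (2.75), Rps2 (2.54), Rps19bp1 (2.11) and Rpl7a (1.07) led again, followed by Rpl15, Rpl18, Rpl13, Rpl10a, Rpl29, Rpl3 and Rpl22l1 with 0.41 to 0.58. Rpl21 (−2.14), Rps19 (−1.17), Rpl10l (−1.12), Rpl27a (−0.79), Rpl39 (−0.75), Rps21 (−0.73), Rps23 (−0.68) and Rpl4 (−0.63) were among those lower, with Rpl9 and Rpl35a at −0.44 and −0.43. Rps19bp1 and Rpl10l are in these counts although they passed the filter only through groups where they are high, so their calls are no test. Rps27l and Rps2 were called higher, and Rps19 and Rps23 lower, under every alternative that tested them in the comparison of the mean of the sites with the Graft. Rps27l, Rps19 and Rps23 have 1 tested probe each, so for them the alternatives in the choice among tested probes refit the same probe and could not differ.

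**Figure D5:**
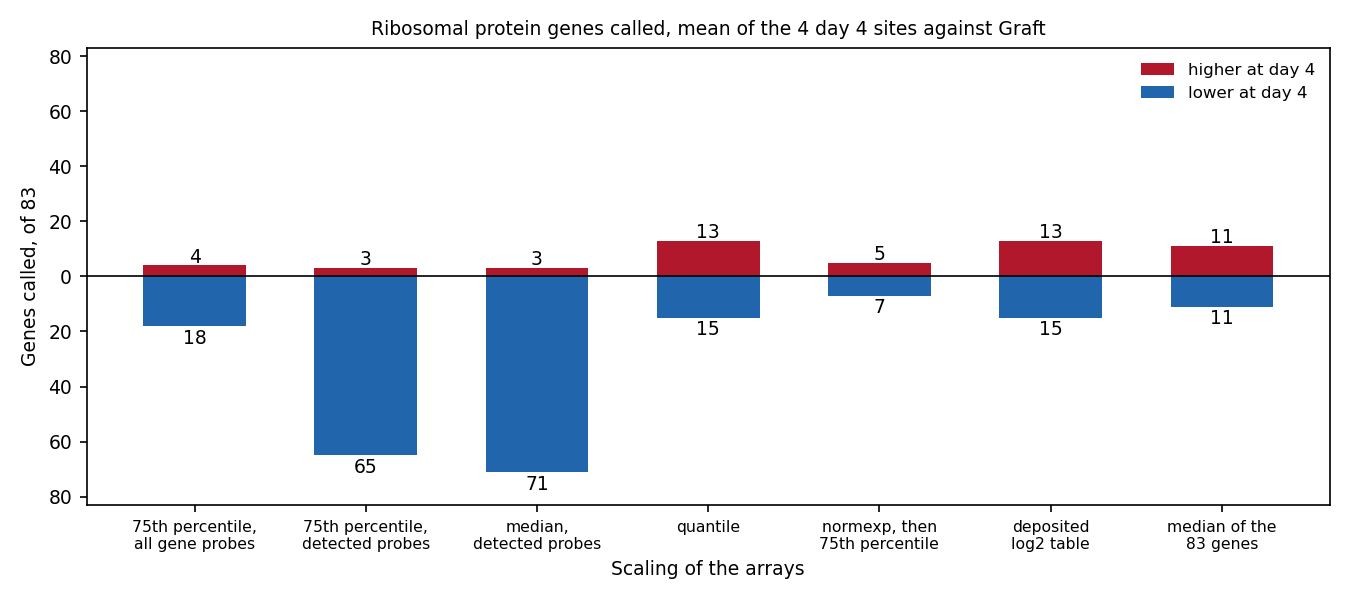
Number of the 83 ribosomal protein genes called higher (upward bars) and lower (downward bars) on day 4 than in the Graft, for the mean of the 4 sites, under 7 ways of scaling the 24 arrays. The counts run from 3 higher and 71 lower (median of detected probes) to 13 and 15 (quantile normalisation and the deposited table) and 11 and 11 (centred on the set).

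Other genes of the translation machinery, from lists chosen with earlier results of these data known, are given for the same comparison with their counts and medians, beside a median of 0.23 and shares of 34.4% higher and 19% lower for all tested genes. Of 70 mitochondrial ribosomal protein genes tested 49 rose and 1 fell, with a median of 0.90. Mrpl15 rose by 2.52 and Mrpl27 by 2.10, while Mrps35 fell by 1.48 on the log2 scale. Of 32 translation initiation factors 18 rose and 1 fell (median 0.73), with Eif2s1, the alpha subunit of eIF2, at 2.99 and Eif3k at −0.51. Of 53 ribosome biogenesis genes 24 rose and 5 fell (median 0.68), with Imp4 (2.02) and Bop1 (1.5), both needed for rRNA processing, among those higher and Ubtf (−1.42), a factor of RNA polymerase I, and Npm1 (−1.07; 0.56 and not called as the mean of its probes) among those lower. Of 11 elongation factors and other TOP mRNAs 4 rose and 2 fell (median 0.24): Hnrnpa1 by 3.06 and Pabpc1, the poly(A)-binding protein, by 1.54, against Eef1d at −0.91 and Eef1a1 at −0.60. Of 19 regulators of TOP mRNAs and mTORC1, 9 rose and 2 fell (median 0.37), with Ddit4, an mTORC1 inhibitor, at 2.35, Larp4b at 1.01, Lamtor2 at −1.45 and Mlst8 at −0.48. Of 9 ribosome surveillance and p53 genes 3 rose and 3 fell (median 0.47), with Trp53 at 0.95, Abce1, a ribosome recycling factor, at 1.18, the snoRNA host Zfas1 at −1.11 and Pelo at −0.51. Rack1 and Fau, ribosomal proteins with other names, differed by −0.21 and −0.05 and were not called. The list counts include genes that passed the filter only through day 4 sites, where they are high, so those had to differ. Among them are Mrpl46, Mrps9, Mrpl19, Dimt1, Polr1e, Taf1d, Ddx10, Pes1 and Rheb, well above background on 0 of 4 Graft arrays. Trp53, well above background on 1 of 4 Graft arrays, is another. The split also depends on the scaling. With the detected probes' 75th percentile, mitochondrial ribosomal proteins gave 30 higher and 4 lower (median 0.49), initiation 11 and 7 (0.32), biogenesis 13 and 6 (0.27), elongation 3 and 5 (−0.17), the TOP and mTORC1 regulators 6 and 5 (−0.04) and surveillance 2 and 3 (0.06), where the cytosolic ribosomal proteins had a median of −0.69. With the median of detected probes the first 3 lists gave 29 and 6, 9 and 10, and 13 and 9.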

How the data were processed

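For each of the 24 one-colour arrays the authors deposited scanner output from Agilent Feature Extraction (10.7 in the submitters' processing notes, 9.5.1.1 in the headers). The processed intensity the authors deposited is linear and background-subtracted, per the file headers, and mean and background intensities and spot flags were also used. Per the labels, RNA (300 pg) was linearly amplified in 2 rounds and labelled with Cy3. A log2 value table that the authors deposited matched quantile-normalised log2 signal minus each probe's median over arrays and served as an alternative. Probe coordinates are on mm9 per the file headers.

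Levels are log2 processed intensity minus the 75th percentile of all gene probes of the array, without control and non-uniform spots. All 24 arrays entered 1 limma model (limma 3.58.1, R 4.3.3) with 1 mean per group and 11 contrasts, adjusted by Benjamini-Hochberg over 9424 genes and called under 0.05. The model was tested on simulated data. Genes were named by a rule: the called extremes of each comparison, the genes called alike at all sites, those whose probes were called in opposite directions, and the stalk, p53-linked and paralog genes. Some genes it names are not reported here. The members and lists were chosen with earlier results of these data known.

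Alternatives were the scaling of arrays, the filter on signal, saturated spots, the choice of probe, array weights, the slide or replicate number as a block, and leaving out arrays. The choice of the 3′ or 5′ probe was added after seeing the data. Replicate numbers are shared by day 4 arrays on 1 slide: deviations of same-numbered arrays correlated from −0.37 to 0.56 between sites and from −0.41 to 0.26 with the Graft, so the numbers do not pair the Graft with the sites. The number of arrays limits the precision.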

Additional observations from a re-analysis of the deposited data

Results flagged for a closer look

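In groups of 4 or 5 arrays, 19 values of 280 groups examined stood apart from the rest of their group (6.79%, where chance gives about 1 in 20). Intestine 3 was the high one for 9 genes: Rpl10 at 7.91, Rpl22 at 7.94, Rpl36a at 7.93, Rpl38 at 8.25, Rplp1 at 7.88, Rplp2 at 8.49, Rps14 at 8.58, Rps27 at 8.24 and Eef1d at 7.23. The median of the tested ribosomal protein genes on that array, 7.91, stood apart too, the other Intestine arrays lying between 6.75 and 6.88. Without Intestine 3 the count of genes called for the mean of the 4 sites against the Graft was 32, with 22 in the full set of arrays.

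Lung 4 was low for Rps27l at 4.27, Rps21 at 4.23 and Zfas1 at 0.91, and high for Mrps35 at −0.78. Intestine 4 was low for Zfas1 at 0.91 and Trp53 at −0.69. Blood 4 was low for Pelo at 2.53. Graft 4 was high for Pabpc1 at 5.06 and Pelo at 3.49.

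Rps19bp1 changed from the Graft by different amounts at 2 sites, the difference of the 2 being −0.96 (Intestine minus Blood, limma adjusted p = 0.0499).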

How the results depend on the processing

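Scaling moved the counts of ribosomal protein genes called most. With the 75th percentile of detected probes they were 65 for Blood, 57 for Liver, 63 for Lung, 49 for Intestine and 68 for the mean of the 4 sites, each against the Graft (25, 9, 17, 14 and 22 in the report). With the median of detected probes they were 77, 66, 56, 45 and 74. Normexp background correction gave 7 for Blood, 10 for Lung, 8 for Intestine and 12 for the mean. Quantile normalisation and the deposited table each gave 19 for Liver, and centring on the set gave 15 for Blood. Array weights gave 46, 47, 45 and 50 for Blood, Liver, Intestine and the mean (70.1%, 68.5%, 57.4% and 70.5% of all tested genes). No signal filter gave 16 for Blood and 11 for Lung. Every probe by itself gave 62, 36, 46, 39 and 58 of 182 probes. The mean of a gene's probes gave 15 for Liver, the 3′ probe 18 for Liver, and the 5′ probe 17 for Liver, 27 for Lung and 24 for Intestine. The replicate block gave 16 for Liver and 23 for Intestine, and with the Graft on a slide of its own it cannot take out a slide effect there. For Intestine against Blood, 0 genes in place of 1 were called under 11 settings: 5 scalings (both detected-probe scalings, quantile, the deposited table, centring on the set), both filters, array weights, every probe, slide as a fixed block, and without Lung 4 and Intestine 4. Array weights called 4 for Intestine against Liver. The median level of the set on day 4 differed from the Graft by −0.30, by −0.71 and −0.85 with the detected-probe scalings, by 0.01 with quantile normalisation and by −0.02 with normexp and with the deposited table. For the mean of the sites, the share of all tested genes called was 53.4% as reported, 56% and 60% with the detected-probe scalings, 51.5% with normexp, 21.8% with no signal filter, 54.4% of every probe and 51.3% with the replicate block. Causes were not tested.

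Leaving out 1 array at a time gave 14 to 28 calls for Blood, 6 to 13 for Liver, 12 to 21 for Lung, 11 to 29 for Intestine and 15 to 32 for the mean of the sites, 0 to 2 for Intestine against Blood, and 0 to 0 for the other pairs.

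Among genes of the text, 25 values turned sign with a call on at least 1 side. Rpl21 became 0.63 for the mean (also by that probe fitted on its own), 0.80 in Blood, 0.28 in Lung, 0.94 in Liver and 0.50 in Intestine with its 3′ probe, which was dim. Rpl27a became 0.61, Rpl31 1.87, Rps3 1.67 and Rpl10 0.09 with the 3′ probe, and Rpl13a 1.08 with it, 0.82 with a middle probe and 0.41 as the mean of probes. Rpsa became −0.79 with the 5′ probe, −0.37 with the detected 75th percentile and −0.50 with the detected median. With that median Rps6 was −0.49, Rpl22l1 −0.43 and Rpl3 −0.44. Npm1 was 0.56 as the mean of probes.

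Over all tested genes, requiring signal on all arrays left 2411, 2307, 1988, 1728 and 2436 calls for Blood, Liver, Lung, Intestine and the mean against the Graft (5318, 4750, 3524, 3285 and 5032 in the report's fit), with fewer genes tested, and array weights gave 5407 for Intestine. Between sites the counts ran from 0 to 947 for Lung against Blood (145), from 165 to 3850 for Intestine against Blood (1251), from 0 to 648 for Lung against Liver (43), from 3 to 734 for Intestine against Lung (36), up to 11 for Liver against Blood (0) and up to 3221 for Intestine against Liver (0).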
